A study of Mus musculus with 4 samples.

Results

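The cells described here are T cells that held transcripts of Ifng, the gene of interferon-gamma, inside a sort for T follicular helper (Tfh) cells. The sort gated on CD4, and the cell rule did not ask for a Cd4 transcript. The cells with Ifng were set against the cells of the same mice in which no Ifng transcript was counted. They were chosen from the Tfh-sort matrix by their transcripts. A cell was kept with at least 500 genes, at most 10% mitochondrial UMIs, at least 1 UMI over Cd3d, Cd3e and Cd3g, and no UMI of Cd79a, Cd8a, Cd8b1, Foxp3 or Il13. A UMI (unique molecular identifier) marks 1 captured transcript molecule. Of 3956 barcodes, 3916 passed the quality limits, 2797 passed the marker limits and 2714 could be given to 1 of 3 mice by their hashtag. Among these 2714 cells, 116 held 2 or more Ifng UMIs (the Ifng 2+ cells), 93 held exactly 1 and 2505 held 0 (the Ifng 0 cells). Ifng set the groups and is therefore not a result, and neither are the other genes of the rule.

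The Tfh sort took TCRβ+ CD4+ CD44+ PD-1+ CXCR5+ cells from the mediastinal lymph nodes of C57BL/6 mice at day 7 after intranasal exposure to 10 μg of Alternaria alternata extract with 25 μg of NP-OVA, and the cells had been stimulated for 30 min with PMA and ionomycin. Both groups compared here therefore share the exposure, the gate and the stimulation. A second sort, used only for comparison, took TCRβ+ CD4+ CD44+ GFP+ cells from C57BL/6 4GET mice, in which GFP reports Il4, after the same exposure and stimulation. Each sort held hashtagged cells of 3 mice in 1 10x lane. Sort, strain, 10x chemistry (v2 for the Tfh sort, v3 for the reporter sort) and sequencing run cannot be told apart, so the sorts were fitted separately.

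Interferon-gamma is the signature cytokine of T helper 1 (Th1) cells, in which the factor T-bet (Tbx21) drives Ifng, the chemokine receptor Cxcr3 and other type 1 genes. Tfh cells depend on the repressor Bcl6, enter B cell follicles through Cxcr5, and help B cells through Il21, Il4 and CD40 ligand. Tfh cells may also make interferon-gamma, which directs B cells to switch to particular antibody isotypes.

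Ifng itself lies on chr10:118441046-118445892 (plus strand, GRCm38), and Xcl1, a chemokine gene that rose strongly in the comparison below, on chr1:164931644-164935527 (minus strand). The 250 bases before their RefSeq starts (GRCm38.p6; chr10:118440796-118441045 for Ifng and chr1:164935523-164935772 for Xcl1) are given 5′ to 3′ on the strand of the gene, to show the promoter of the gene that defined the groups beside that of a gene that rose with it. Capitals mark the T-box half-site GGTGTG or its reverse complement CACACC, the letters that factors of the T-bet family bind.
Ifng: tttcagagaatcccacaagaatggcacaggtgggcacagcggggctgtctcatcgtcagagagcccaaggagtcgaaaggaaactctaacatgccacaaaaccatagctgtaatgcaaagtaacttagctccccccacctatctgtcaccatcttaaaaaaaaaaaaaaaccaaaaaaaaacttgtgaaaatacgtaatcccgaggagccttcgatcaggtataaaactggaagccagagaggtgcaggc
Xcl1: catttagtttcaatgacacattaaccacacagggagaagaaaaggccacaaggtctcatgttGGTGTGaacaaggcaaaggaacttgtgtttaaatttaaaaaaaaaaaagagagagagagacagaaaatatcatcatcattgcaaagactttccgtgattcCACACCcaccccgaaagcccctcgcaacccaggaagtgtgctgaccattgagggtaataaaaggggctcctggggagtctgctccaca
The Xcl1 window held the half-site 2 times and the Ifng window did not hold these letters. Of 2 other genes that rose, the Nkg7 window held the half-site 1 time and the Cxcr3 window 0 times. On either strand, 16.3% of 32851 RefSeq promoters held it. A match of letters is a description of the window and does not show binding.

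The Ifng 2+ cells made up 4.99%, 3.01% and 5.36% of the cells of the 3 mice (50, 33 and 33 cells), and 4.27% of all 2714 (95% Clopper-Pearson interval 3.54 to 5.10, which covers counting error only). They held a median of 6 Ifng UMIs each, from 2 to 43. Transcripts from broken cells float into every droplet, and B cells, in which little Ifng is made, were used to measure this background. Of 340 B cells of the same lane, 8 (2.35%) held at least 1 Ifng UMI and 0 held 2 or more, which allows a share of up to 0.882%. The B cells were shallower, with a median of 2047.5 UMIs against 3202 in Ifng 2+ and 2692 in Ifng 0 cells. The share of mitochondrial UMIs was 3.44%, 3.32% and 3.44% in the Ifng 2+ cells and 3.43%, 3.50% and 3.59% in the Ifng 0 cells of mice 1 to 3.

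The gate was visible in the transcripts of both groups. Pdcd1 (PD-1) gave a UMI in 50.9% of Ifng 2+ and 42.1% of Ifng 0 cells, against 2.94% of B cells. Cd4 was found in 63.8% and 54.4%, against 4.12% of B cells. Bcl6 was sparse, in 7.76% and 5.35% of cells against 2.06% of B cells. At least 1 of Cxcr5, Bcl6, Pdcd1 and Icos was found in 87 of the 116 Ifng 2+ cells (75.0%) and in 68.6% of the Ifng 0 cells.

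For the comparison of levels, the UMIs of all cells of a group were summed in each mouse, because cells of 1 mouse are not replicates, and the mouse is the replicate (n = 3). The sums held 115083 to 189564 UMIs for Ifng 2+ and 2065142 to 3485481 for Ifng 0 cells. Levels are CPM, UMI counts scaled to a common library total with TMM factors, which even out library composition, and with Ifng left out. Differences are log2 fold changes with their standard error (SE) from edgeR's quasi-likelihood test with the mouse as a block. A gene passed at an adjusted p (Benjamini-Hochberg, over all genes tested) under 0.05. CPM counts transcripts without a correction for gene length, so levels are compared between groups and not between genes. Whether the mice of the groups overlap is given as a description only. The share of all tested genes without overlap is not given beside it, so it adds no support to a call.

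Ifng-transcribing cells of the Tfh sort carried more transcripts of chemokines (Xcl1, Ccl5, Ccl3, Ccl4, Ccl1), of Cxcr3 and Nkg7, and of Il10 and Lag3, and fewer of Il4 and of some genes of dividing cells such as Stmn1 and Hmgb2. Il21 and Il2 were higher by smaller amounts. In this fit 132 of 6886 genes passed (1.92%), 80 of them higher (1.16%) and 52 lower (0.755%) in Ifng 2+ cells. Of the 20 genes of the Th1 list 10 could be tested and 5 rose (Cxcr3, Nkg7, Ccl5, Ly6c2 and Bhlhe40), with a median log2 fold change of 1.28 over the tested members against -0.01 over all genes. Nkg7 and Ly6c2 entered the test through the Ifng 2+ cells and count in this median, and Tbx21 was among the members not tested.

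Cxcr3, the receptor that leads T cells towards CXCL9 and CXCL10, stood at 17.8, 24.1 and 26.7 CPM in the Ifng 0 cells of mice 1 to 3 and at 207, 151 and 289.7 CPM in the Ifng 2+ cells. The lowest Ifng 2+ mouse was above the highest Ifng 0 mouse, and the log2 fold change was 3.24 ± 0.26 (SE; edgeR adjusted p = 1.83e-22). Nkg7, a protein of cytotoxic granules, stood at 21.9, 6.52 and 20.5 CPM against 202, 310.5 and 529.8 CPM. The groups did not overlap, with a log2 fold change of 4.36 ± 0.26 (edgeR adjusted p = 1.15e-35). Tbx21 itself was too sparse for the test: 3.17, 1.13 and 0.954 CPM in Ifng 0 cells and 10.9, 26.6 and 0 CPM in Ifng 2+ cells, with no UMI in the third mouse.

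Per cell, a Cxcr3 UMI was found in 40.5% of Ifng 2+ cells, 14.0% of cells with 1 Ifng UMI, 5.59% of Ifng 0 cells and 1.47% of B cells. By mouse the Ifng 2+ share was 40%, 33.3% and 48.5%. Nkg7 was found in 29.3%, 8.60% and 2.16%, and in 0 of 340 B cells. After each cell was thinned to 2000 UMIs, which 96 of 116 and 2011 of 2505 cells could give, the Cxcr3 share was 31.3% against 4.38% and the Nkg7 share 22.9% against 1.29%, so both differences remained at equal depth.

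Among the chemokines, which recruit other leukocytes, 5 of 7 tested members of the list rose and 1 fell. Xcl1, which attracts cross-presenting dendritic cells, stood at 15.9, 3.40 and 2.86 CPM against 937, 364 and 157 CPM. No mouse overlapped and the log2 fold change was 6.07 ± 0.25 (edgeR adjusted p = 2.43e-54), but the transcripts were concentrated: 13 of 116 cells held all 232 Xcl1 UMIs and 3 cells held 75.0% of them. Ccl5, a chemokine of effector T cells, stood at 40.9, 9.36 and 34.8 CPM against 627, 266 and 844 CPM, a log2 fold change of 4.35 ± 0.20 (edgeR adjusted p = 6.5e-48). Its 247 UMIs came from 17 cells.

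Ccl4 and Ccl3, inflammatory chemokines, varied widely between mice. Ccl4 stood at 96.1, 60.4 and 88.7 CPM against 469, 523 and 1979 CPM, and Ccl3 at 11.7, 9.36 and 31.0 CPM against 213, 71.0 and 786 CPM. The third mouse held the highest level of both, and the log2 fold changes were 3.37 ± 0.17 and 4.2 ± 0.26. A Ccl4 UMI was more frequent in B cells (42.6%) than in Ifng 2+ (22.4%) or Ifng 0 cells (11.8%), so no difference is read from these shares. The part of free RNA in its levels was not tested. Ccl1 rose from 64.7, 36.9 and 61.1 CPM to 469, 302 and 563 CPM (3.02 ± 0.19). These rises too rested on few cells, since 3 cells held 69.3% of the Ccl4, 79.6% of the Ccl3 and 66.5% of the Ccl1 UMIs of the Ifng 2+ cells. The fall was in Ccl22, with 169 UMIs over the Ifng 0 cells and 0 over the Ifng 2+ cells, at least 2.68-fold lower against a floor of 3 counts.

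**Figure D1:**
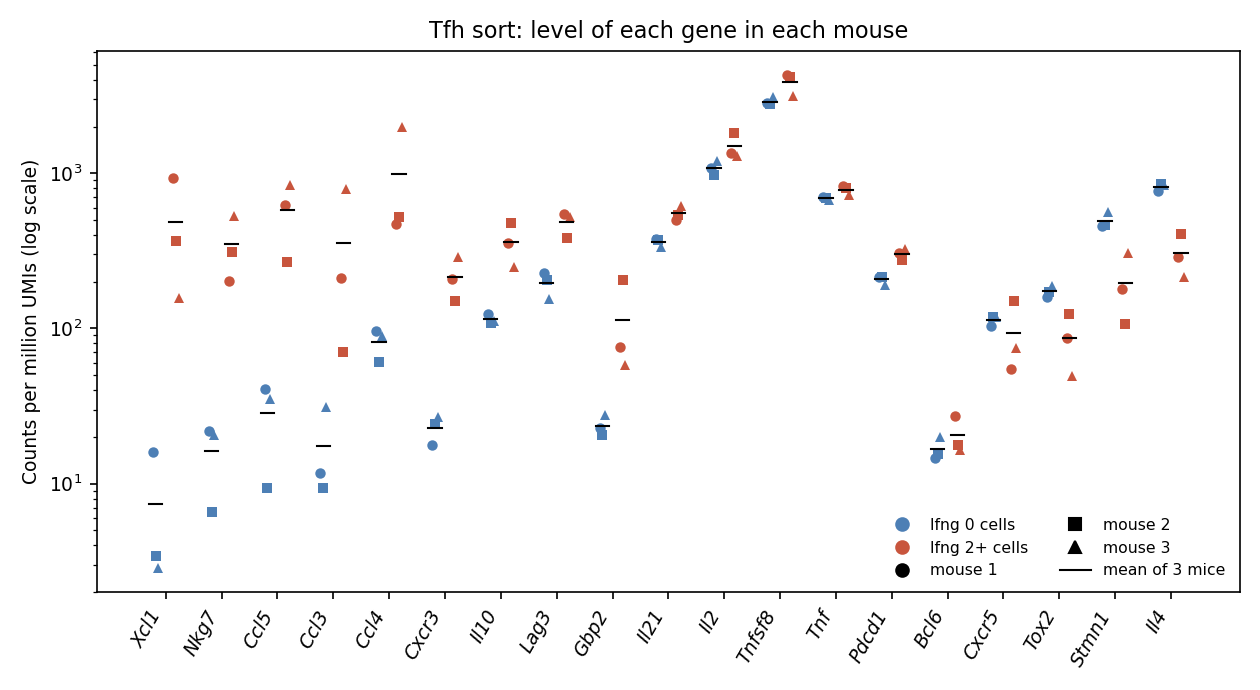
Level of named genes (CPM, log axis) in the summed cells of each mouse of the Tfh sort, with Ifng 0 cells in blue and Ifng 2+ cells in red; each marker shape is 1 mouse and the line is the mean. The red points of Xcl1, Nkg7, Ccl5, Cxcr3 and Il10 all lie above the blue points, those of Il4 and Stmn1 all lie below, and those of Cxcr5 and Bcl6 overlap.

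Cytokines of helper T cells moved in both directions, with 4 of 17 tested members of the list higher and 3 lower. Il10, an anti-inflammatory cytokine, rose from 125, 108 and 111 CPM to 354, 479 and 248 CPM (1.63 ± 0.18; edgeR adjusted p = 8.51e-14). Il4, the type 2 cytokine that Tfh cells supply to B cells, fell from 769.9, 849 and 839.6 CPM to 289, 408 and 215 CPM (-1.44 ± 0.13; edgeR adjusted p = 7.38e-18). In both genes every Ifng 2+ mouse lay outside the range of the Ifng 0 mice. Of the 149 Il10 UMIs of Ifng 2+ cells 3 cells held 43.0%, and an Il10 UMI was found in 23.3% of Ifng 2+ cells, 28.0% of cells with 1 Ifng UMI and 16.0% of Ifng 0 cells.

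Il21, the main helper cytokine of Tfh cells, stood at 375, 369.6 and 334 CPM in Ifng 0 and 501, 541 and 613 CPM in Ifng 2+ cells, a rise of 0.60 ± 0.13 on the log2 scale (edgeR adjusted p = 0.000845). Il2 rose from 1087, 971 and 1196 CPM to 1352, 1819 and 1299.7 CPM (0.45 ± 0.09; edgeR adjusted p = 0.000536), and at matched depth its call was lost (0.32; edgeR adjusted p = 0.058). Without the third mouse Il21 no longer passed (0.42; edgeR adjusted p = 0.25), nor did Il2 without the first or the second (0.52 and 0.22; edgeR adjusted p = 0.13 and 0.61). Tnfsf8 (CD30 ligand) rose by 0.42 ± 0.08, a call that was lost without the first mouse (0.32). Tnf stood at 702, 697 and 673 CPM against 828, 798 and 720.2 CPM and did not pass (0.18 ± 0.11; edgeR adjusted p = 0.70).

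Read cell by cell, the Ifng 2+ cells were more often cells with Il21 and no Il4. An Il4 UMI was found in 29.3% of them against 53.1% of Ifng 0 cells and 7.35% of B cells, and an Il21 UMI in 68.1% against 53.6% and 8.24%. Il21 without Il4 was found in 40%, 54.5% and 42.4% of the Ifng 2+ cells of mice 1 to 3 and in 24.2%, 21.9% and 18.6% of the Ifng 0 cells. Il4 without Il21 was found in 6.00%, 6.06% and 6.06% against 21.8%, 21.1% and 22.0%. Neither pair of ranges overlapped. An exact 2-sided permutation test paired by mouse gave p = 0.25 for each, which is the smallest that 3 mice allow. Cells with both cytokines made up 23.3% against 31.6%, and cells with neither 25.9% against 24.8%. At 2000 UMIs per cell, Il4 was found in 24.0% against 47.6% and Il21 in 57.3% against 44.9%, but the level of Il21 did not pass in a fit at that depth (0.50; edgeR adjusted p = 0.11).

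**Figure D2:**
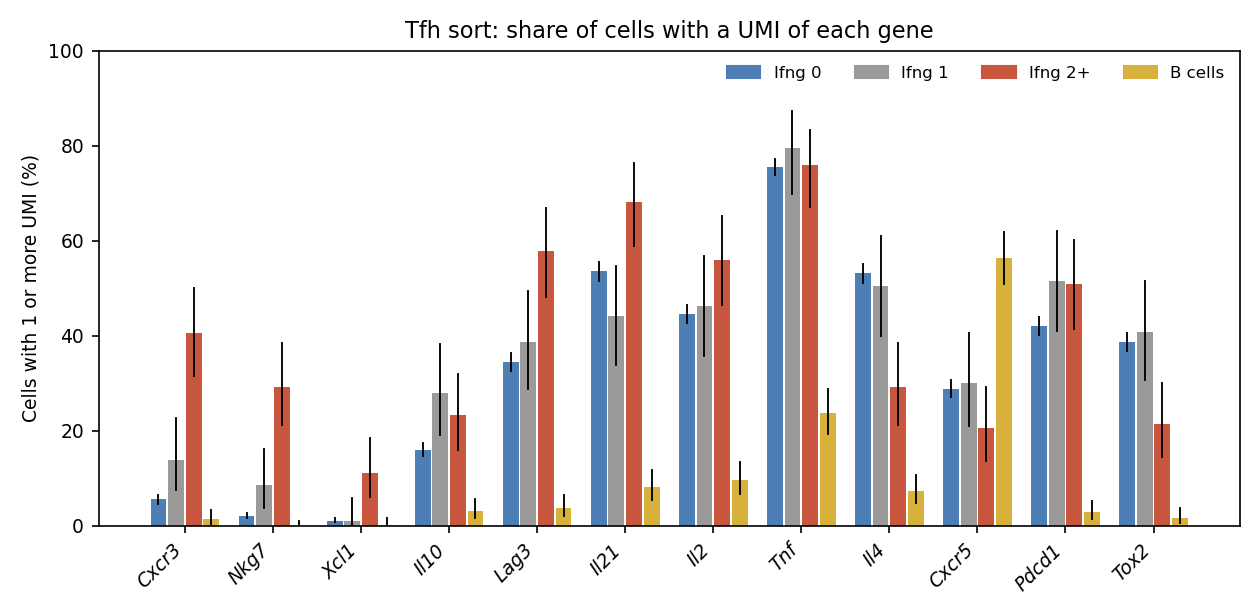
Percent of cells with at least 1 UMI of each gene in cells with 0, 1 and 2 or more Ifng UMIs and in B cells of the Tfh sort, with 95% intervals for counting error. The Cxcr3 and Nkg7 shares are highest in Ifng 2+ cells (40.5% and 29.3%), and the Il4 share is lowest among the T cells there (29.3%).

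Most Tfh genes did not pass the test, although 23 of the 24 on the list were measured. On that list 3 rose (Il21, Tnfsf8 and Sostdc1) and 1 fell (Tox2), with a median log2 fold change of 0.04. Tox2, a nuclear factor of the Tfh program, fell from 159.9, 172 and 187 CPM to 87.2, 124 and 49.7 CPM (-0.99 ± 0.24). Sostdc1, a secreted Wnt and BMP antagonist, passed (0.86 ± 0.18) with 161, 166 and 151 CPM against 338, 160 and 356 CPM, the second mouse showing no rise. Pdcd1 was 214, 216 and 192 CPM against 305, 275 and 323 CPM and missed the threshold (0.54 ± 0.17; edgeR adjusted p = 0.0729) although the mice did not overlap.

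Cxcr5 stood at 104, 118 and 119 CPM in Ifng 0 and at 54.5, 151 and 74.5 CPM in Ifng 2+ cells, with overlapping mice (-0.36 ± 0.27; edgeR adjusted p = 0.816). Bcl6 was 14.6, 15.6 and 20 CPM against 27.2, 17.7 and 16.6 CPM (0.38 ± 0.58; edgeR adjusted p = 0.933). Gata3, the factor of type 2 helper cells, had a log2 fold change of 0.04 (edgeR adjusted p = 0.988). These wide errors do not show that the levels were equal.

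Receptors and effector genes rose in several lists. Lag3, an inhibitory receptor that binds MHC class II, rose from 229, 204 and 155 CPM to 545, 381 and 522 CPM (1.31 ± 0.15; edgeR adjusted p = 1.33e-12) and was the 1 member of 6 tested inhibitory receptors to do so. Bhlhe40, a transcription factor, rose from 311, 239 and 299 CPM to 594, 727 and 571 CPM (1.15 ± 0.13). Neither gene overlapped between groups. Cd4 rose by 0.62 ± 0.15 and Il2rb, a chain of the IL-2 and IL-15 receptors, by 0.80 ± 0.22. Of the regulatory T cell list, chosen without Foxp3, 4 of 10 tested members rose (Il10, Tnfrsf4, Tnfrsf9 and Capg). Tnfrsf4 (OX40), which activated T cells also carry, rose by 0.57 ± 0.10.

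On the interferon response list 3 of 21 tested genes rose. Gbp2, a guanylate-binding protein induced by interferons, stood at 22.8, 20.4 and 27.7 CPM against 76.3, 204 and 57.9 CPM (2.2 ± 0.33), and Gbp7 at 10.8, 11.6 and 8.59 CPM against 38.1, 62.1 and 49.7 CPM (2.22 ± 0.50). Both were higher in every mouse without overlap, although 3 cells held 61.4% of the 44 Gbp2 UMIs. Gbp7 lay under the count filter in the Ifng 0 cells of the third mouse and entered the test through the Ifng 2+ cells. Ly6a (Sca-1) rose by 0.79 ± 0.15 with overlapping mice. Of the non-Tfh effector list 5 of 14 tested genes rose, among them S100a4 (1.61 ± 0.29), from 34.3, 34.0 and 46.3 CPM to 70.8, 169 and 124 CPM.

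On the list of dividing-cell genes 7 of 26 tested members fell and 19 did not pass, with a median log2 fold change of -0.70. Stmn1, a microtubule regulator, fell from 460.0, 463 and 560.1 CPM to 179.8, 106 and 306 CPM (-1.33 ± 0.16). Hmgb2, a chromatin protein, fell from 1422, 1411 and 1677 CPM to 703, 745 and 1316 CPM (-0.74 ± 0.10), and Ccnb2, a mitotic cyclin, from 86.3, 70.9 and 92.1 CPM to 5.45, 8.87 and 33.1 CPM (-2.53 ± 0.46). The third mouse kept the highest Ifng 2+ level in all 3 genes, and in none did the groups overlap. A Mki67 UMI was found in 5.17% of Ifng 2+ and 10.0% of Ifng 0 cells.

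Genes of the acute response to stimulation did not move as a block: 2 of 37 rose and 4 fell. Nr4a2, a nuclear receptor induced by T cell receptor signals, rose by 0.45 ± 0.10, and Dusp4, a phosphatase of MAP kinases, by 1.27 ± 0.31. Fos fell by 0.28 on the log2 scale (SE 0.07) and Ppp1r15a by 0.69 (SE 0.15). Areg (amphiregulin) fell from 431, 431 and 420.3 CPM to 398, 159.7 and 248 CPM (-0.61 ± 0.15).

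Some genes were seen almost only on 1 side. Ctsw, Gzmk and Ly6c2, like Xcl1 and Nkg7, lay under the count filter in the Ifng 0 cells of at least 1 mouse and entered the test through the Ifng 2+ cells. Ctsw, a cathepsin of cytotoxic lymphocytes, stood at 4.12, 1.99 and 1.43 CPM in Ifng 0 and 87.2, 44.4 and 33.1 CPM in Ifng 2+ cells (4.40 ± 0.60). Gzmk (granzyme K) stood at 8.25, 0.284 and 3.34 CPM against 54.5, 44.4 and 74.5 CPM (3.80 ± 0.58). Its call was lost after thinning to 2000 UMIs per cell (2.73; edgeR adjusted p = 0.10). Ly6c2 had 26 UMIs in Ifng 2+ and 3 in Ifng 0 cells, a ratio of 182 with a counting interval of 55.9 to 941, but 3 cells held 24 of the 26, and reads of Ly6c2 may be split with its near-identical neighbour Ly6c1. Akr1c18, a steroid-metabolising enzyme, had 347 UMIs over 91 of 2505 Ifng 0 cells (3.63%) and 0 over the 116 Ifng 2+ cells. A floor of 3 counts puts it at least 5.50-fold lower, but this treats UMIs as independent, and 1 Ifng 0 cell held 51. By cells, 0 of 116 allows a share of up to 2.59% beside 3.63%, so no such fold is read. In the reporter sort 4.05% of Ifng 2+ and 3.68% of Ifng 0 cells carried it.

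Markers of other cell types were measured beside these rises. In the Ifng 2+ cells 6 of the 16 natural killer (NK) and NKT cell markers were at 0 (Klre1, Klra1, Klra7, Klra9, Ncr1 and Zbtb16), and the summed level of the list was 310 to 431 CPM against 165 to 208 CPM in Ifng 0 cells. These 6 held only 0 to 2 UMIs each over the Ifng 0 cells, so their 0 says little. Klrc1 had 5 UMIs in 3 Ifng 2+ cells against 1 UMI in Ifng 0 cells. Eomes was found in 6 of 116 against 21 of 2505 cells, and Txk, the other way, in 7 against 219. Tyrobp and Il2rb of this list passed as higher. Tyrobp rested on 17 UMIs in 6 Ifng 2+ cells, and its call was lost at matched depth (1.39; edgeR adjusted p = 0.13). Of 11 gamma-delta T cell markers 7 were at 0, and the summed level of the list was 0 to 151 CPM (median 16.6) against 4.29 to 7.09 CPM. The 7 at 0 held 0 to 9 UMIs each over the Ifng 0 cells. Trdc, the constant gene of the delta chain, had 14 UMIs in 3 Ifng 2+ cells and 35 UMIs in 15 Ifng 0 cells. The Ifng 2+ cells with Trdc all carried Nkg7 or Ccl5, and none came from the first mouse. Any of the 16 NK and NKT markers was found in 54.3% of Ifng 2+ and 39.0% of Ifng 0 cells. A narrower set was Klrb1c, Klrd1, Klrk1, Ncr1, Zbtb16, Trdc, Tyrobp and Fcer1g. At least 1 of these was found in 10 of 116 Ifng 2+ cells (8.62%) and in 2.44% of Ifng 0 cells. The share was 5 of 35 (14.3%) among Ifng 2+ cells with 10 or more Ifng UMIs. Of 12 myeloid markers 5 were at 0 (Csf1r, Itgam, Itgax, Xcr1 and Siglech), with a summed level of the list of 169 to 704 against 226 to 339 CPM. These 5 held 0 to 23 UMIs each over the Ifng 0 cells. Lyz2, a macrophage lysozyme, passed the test (1.26) through 7 cells, 3 of which held 83 of its 87 UMIs. Without cells that carried a macrophage marker, an alternative added after the data were seen, 117 genes passed. Without cells that carried a gene of the narrower NK, NKT and gamma-delta set 111 passed. Cells with only Il2rb, Cd160, Eomes, Txk or Klrc1 of the longer list stayed in.

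Among the Ifng 2+ cells, 37 of 116 (31.9%; 95% Clopper-Pearson interval 23.6 to 41.2) carried a UMI of Nkg7 or Ccl5, 11, 11 and 15 in mice 1 to 3. These cells held a median of 9 Ifng UMIs (3 to 43) and the other 79 a median of 5 (2 to 18), although the carrying cells were shallower (median 2645 against 3267 UMIs). By Ifng UMI number, the carrying share was 0 of 8 cells at 2 UMIs, 13 of 37 at 3 to 4 (35.1%), 6 of 36 at 5 to 9 (16.7%) and 18 of 35 at 10 or more (51.4%). The order was thus not monotonic. Just outside the threshold, 10 of 93 cells with 1 Ifng UMI (10.8%) carried either gene. Cxcr3 showed no such lean towards cells with many Ifng UMIs, being found in 6 of 8 cells at 2 UMIs (75.0%), 27.0% at 3 to 4, 47.2% at 5 to 9 and 40% at 10 or more.

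**Figure D3:**
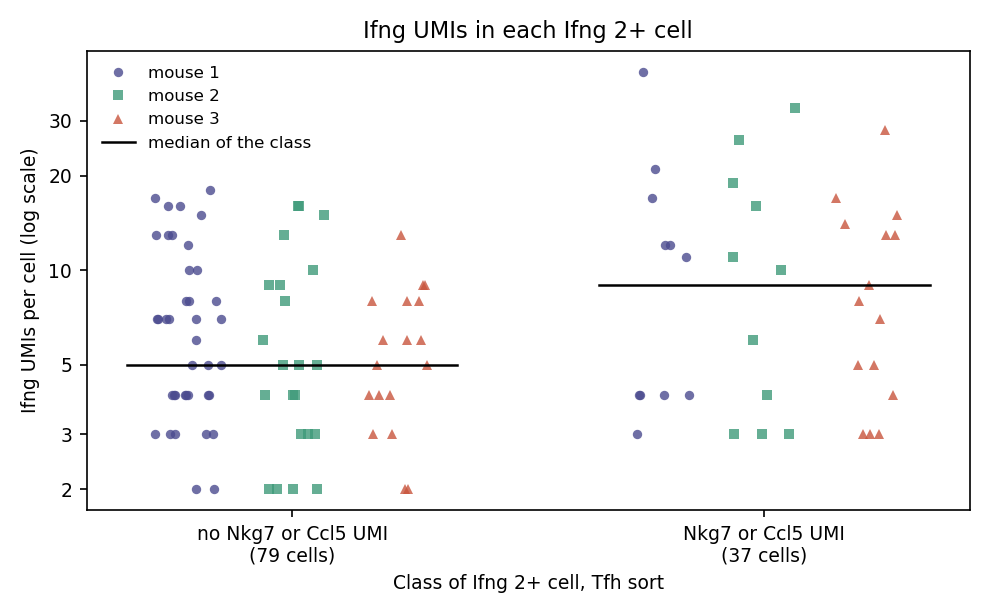
Ifng UMIs per cell (log axis) in the 79 Ifng 2+ cells without and the 37 with a Nkg7 or Ccl5 UMI in the Tfh sort; each point is 1 cell and the line is the median. The medians are 5 and 9, and the cells with the most Ifng UMIs carry Nkg7 or Ccl5.

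Compared within the Ifng 2+ cells of each mouse, the cells that carried Nkg7 or Ccl5 also held Ccl4 and Ccl3 and held less Il4. In this fit 4 of 940 genes passed (0.426%), 2 in each direction (0.213%). Ccl4 stood at 1933, 1692 and 4252 CPM in carrying cells and 78.5, 36.5 and 0 CPM in the others (5.58 ± 0.41), and Ccl3 at 836, 211 and 1690.0 CPM against 45.8, 12.2 and 0 CPM (4.96 ± 0.50). With 15 and 8 UMIs over the other cells, both lay under the count filter there and entered the test through the carrying cells. Il4 stood at 131, 121 and 53.4 CPM against 314, 511 and 364 CPM (-1.98 ± 0.39; edgeR adjusted p = 0.013); its call was lost with DESeq2, with RLE size factors and without the first or the third mouse. Cxcr3 (-0.50), Il21 (0.35) and Xcl1 (0.75) did not pass, and sums of 11 to 39 cells leave wide errors. Cd4 stood at 157, 181 and 409 CPM in carrying cells and 425, 438 and 380 CPM in the others. It was lower in mice 1 and 2, higher in mouse 3, and did not pass (-0.73 ± 0.35, edgeR adjusted p = 0.907).

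With the Nkg7- or Ccl5-carrying cells taken out of the Ifng 2+ and Ifng 0 groups, 54 of 6837 genes passed (0.79%; 0.351% higher and 0.439% lower), 50 of them among the 132. Cxcr3 (3.44), Xcl1 (6.31), Il10 (1.42), Lag3 (1.07), Gbp2 (2.04) and Il4 (-1.14) kept their calls. For Xcl1 the call rested on few cells. In the fit within Ifng 2+ cells, the non-carrying cells of the 3 mice held 837, 377 and 0 CPM. A single cell of the first mouse held 111 of their 159 Xcl1 UMIs. Il21 (0.36; edgeR adjusted p = 0.46), Tox2 (-0.90; edgeR adjusted p = 0.13) and Ccl3 (1.40; edgeR adjusted p = 0.67) lost theirs, and Ccl4 changed direction (-0.53).

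Depth and single mice bore on the counts. With cells of the 2 groups matched on their UMI number, 119 of 5352 genes passed (2.22%; 1.33% higher and 0.897% lower) and 114 of the 132 (86.4%) were called again. After thinning to 2000 UMIs per cell, 58 of 4802 genes passed and 51 of the 132 (38.6%) were called again. The 123 of the 132 that were measured there all kept their direction. Without the first mouse, which gave 50 of the 116 cells, 42 genes passed and 39 of the 132 were called again (29.5%). Of the named genes 29 lost their call without the first mouse, 13 without the second and 17 without the third. Among those described above, Cd4, Tox2, Sostdc1, Dusp4, Tnfrsf9, Fos, Tyrobp and Lyz2 were lost without the first or the third. Nr4a2, Ccnb2, Akr1c18, Ppp1r15a and Capg were lost without the first, Gbp2, Areg and S100a4 without the second, and Ly6a without the third. Gbp7, Il2rb and Ccl22 were lost without any 1 of the 3. DESeq2 called 53. Cxcr3, Nkg7, Xcl1, Il10, Lag3 and Il4 kept their direction and call under every alternative in which they could be fitted. For Xcl1 these calls rested on few cells. Without Nkg7- or Ccl5-carrying cells, the Ifng 2+ cells of the third mouse held none of its UMIs.

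Cells with exactly 1 Ifng UMI were compared with the Ifng 0 cells to see whether they lay between the groups. Of the 7 tested genes of the Th1 list 0 passed, but sums of 25 to 36 cells can miss changes. In this fit 22 of 2597 genes passed (0.847%), 16 higher (0.616%) and 6 lower (0.231%). Cxcr3 stood at 63.2, 29.5 and 17.5 CPM in cells with 1 UMI (0.72 ± 0.52; edgeR adjusted p = 0.609), beside mean levels in this 9-sum fit of 23.0 CPM in Ifng 0 and 219 CPM in Ifng 2+ cells. Nkg7 (1.52), Il4 (-0.46) and Il10 (-0.63) did not pass either. By share of cells, Cxcr3 and Nkg7 did lie between the groups in each mouse. Cxcr3 was found in 19.4%, 12.5% and 8% of cells with 1 UMI against 4.69%, 5.73% and 6.81% of Ifng 0 cells. Nkg7 was found in 11.1%, 6.25% and 8% against 2.73%, 1.46% and 2.51%. These shares were not tested.

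Among the 16 genes higher in the cells with 1 Ifng UMI were 4 of the 21 tested members of the dividing-cell list (Ccnb2, Hmgb2, Stmn1 and Tyms), and 17 did not pass. Hmgb2 averaged 1515, 2002 and 936 CPM in cells with 0, 1 and 2 or more UMIs, and Stmn1 498, 746 and 201 CPM. Of the acute stimulation genes 3 fell (Junb, Dusp2 and Btg2). Cells with 1 Ifng UMI were deeper in the second mouse (median 3527.5 against 2575 UMIs) but not in the first (2571 against 2747). The calls of Ccnb2, Hmgb2 and Stmn1 were lost without the second or the third mouse, when 1 and 4 genes passed in all, and 60 passed without the first. At matched depth 1 of 2625 genes passed (0.0381%), and the log2 fold changes of Hmgb2, Stmn1 and Ccnb2 were 0.03, 0.08 and 0.40, none of which passed. Without cycling cells edgeR called 0 of 1668, with 77 at an unadjusted p under 0.05.

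Set directly against the cells with 1 UMI, a comparison added after the data were seen, the Ifng 2+ cells differed in 101 of 2597 genes (3.89%), 48 higher (1.85%) and 53 lower (2.04%). Cxcr3 (2.51), Nkg7 (2.87), Il10 (2.25) and Lag3 (1.18) were higher and Il4 (-0.98) lower, all past the threshold. Without the third mouse Cxcr3 (2.02), Nkg7 (2.39), Lag3 (0.98) and Il4 (-0.42) no longer passed, with edgeR adjusted p = 0.062, 0.071, 0.13 and 0.50. All 5 tested chemokines rose, and 12 of 21 tested genes of dividing cells fell.

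In the IL-4 reporter sort the same cell rule gave 2448 cells with a mouse from 7646 barcodes, of which 74 were Ifng 2+ (18, 19 and 37; 2.22%, 2.85% and 3.82%) and 2312 Ifng 0. Ifng 2+ cells there too carried more Cxcr3, Nkg7, Il10, Il21 and interferon-response transcripts. In this fit 250 of 8856 genes passed (2.82%), 156 higher (1.76%) and 94 lower (1.06%). Cxcr3 stood at 7.76, 12.2 and 8.92 CPM against 168, 104 and 92.0 CPM (3.57 ± 0.33), with no overlap between groups. Tbx21 stood at 0.582, 0.693 and 0.308 CPM against 9.33, 34.7 and 17.7 CPM. It could be tested only through its level in the Ifng 2+ cells and rests on 12 UMIs in 10 of 74 cells (13.5%) against 8 UMIs in 8 of 2312 (0.346%), beside 3 of 117 B cells (2.56%).

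Il10 rose from 127, 131 and 117 CPM to 373, 636 and 365 CPM (1.85 ± 0.17) and Il21 from 277, 240.2 and 236 CPM to 485, 694 and 499 CPM (1.16 ± 0.15). Pdcd1 rose from 127, 103 and 125 CPM to 243, 144 and 283 CPM (0.92 ± 0.19), a call lost without the third mouse (0.68; edgeR adjusted p = 0.36), and Sostdc1 by 1.91 ± 0.18. On the lists, 7 of 12 tested Th1 genes, 10 of 23 interferon response genes and 8 of 15 non-Tfh effector genes rose, beside 1.76% of all tested genes. Of the regulatory T cell list 8 of 10 tested members rose (Il2ra, Ikzf2, Ctla4, Tnfrsf4, Capg, Il10, Nt5e and Nrp1), with a median log2 fold change of 0.98. The Th1 count includes Tbx21, which entered the test only through the Ifng 2+ cells. Without the third mouse S100a6, S100a4, Vim, Gbp7 and Tnfrsf4 of these lists lost their calls. Il4 was low throughout, at 40.1, 48.0 and 45.9 CPM against 46.7, 11.6 and 31.9 CPM, and did not pass (-0.67 ± 0.39; edgeR adjusted p = 0.621). Xcl1 (1.32 ± 1.03) and Stmn1 (0.45 ± 0.16) did not pass either. Differences between the sorts were not tested.

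Of the 132 genes of the Tfh sort, 125 were measured in the reporter sort, 107 of these moved in the same direction (85.6%) and 56 passed there too, which is 42.4% of the 132 and 22.4% of the 250. Without the third reporter mouse, which gave 37 of the 74 cells, 64 genes passed.

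**Figure D4:**
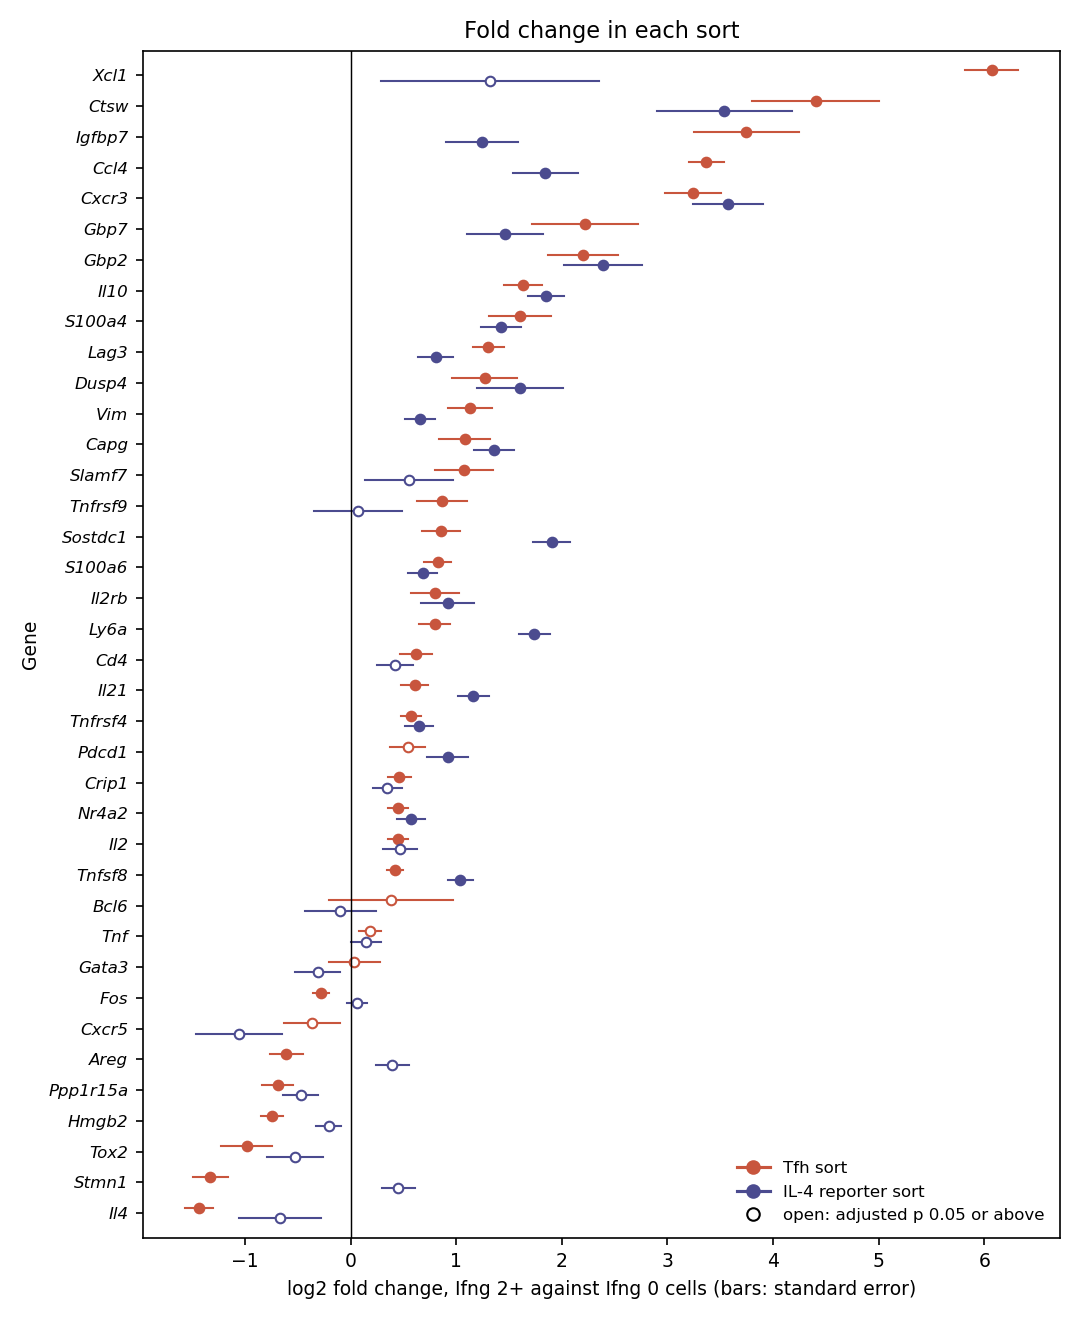
Log2 fold change (± SE) of named genes in Ifng 2+ against Ifng 0 cells in the Tfh sort and the IL-4 reporter sort, each from its own fit with 3 mice; open markers did not pass the test. Cxcr3 and Il10 rose in both sorts (3.24 and 3.57, 1.63 and 1.85), whereas Xcl1 and Stmn1 passed in the Tfh sort and not in the reporter sort.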

How the data were processed

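Droplet-based 3' RNA libraries (10x) of 2 sorts were sequenced. The deposited gene matrices are raw UMI counts. Hashtag tables were deposited as unnormalized tag counts, and whether these are UMIs or reads is not given in the sources used here. Cell Ranger 2.2.0 and the mm10 build are named, per the submitters' processing notes, and a header of the reporter matrix names Cell Ranger 3.0.2. The annotation release is not given in the sources used here. The matrices list 28692 features, and 67 repeated symbols were summed.

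A cell was given to a mouse when its top hashtag had at least 10 counts and at least 3 times the next, which leaves out doublets of different mice; no further doublet caller was run. The 2 sorts shared 1 barcode. Counts were summed per mouse and Ifng class, with Ifng left out, and tested with edgeR 4.0.16 (R 4.3.3; TMM, filterByExpr with a minimum count of 10, glmQLFTest, Benjamini-Hochberg), with the mouse as a block because every mouse gave cells to each group. DESeq2 1.42.0, RLE size factors, no filter, no block, depth matching in 5 bins, thinning, other cell limits and leaving out each mouse were alternatives. Tested on simulated data for the Ifng 2+ against Ifng 0 comparison, 73.3% of 4-fold and 32.3% of 2-fold changes were recovered (6838 genes).

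Named genes were 13 fixed ones, the 10 largest rises and 10 largest falls (adjusted p under 0.05, the same direction in 3 mice, at least 20 CPM in the higher group; unnamed models, mitochondrial genes and TCR V segments passed over), and up to 4 passing members of each of 22 lists. The members and lists were chosen with earlier results of these data known. Bhlhe40, Ccl1, Junb, Dusp2, Btg2, Mki67, Tyms, Tuba1b and the genes of the other observations were picked once their values were known.

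Promoters came from RefSeq (GRCm38.p6) and gene positions from GENCODE (GRCm38).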

Additional observations from a re-analysis of the deposited data

Results flagged for a closer look

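Areg, the gene of amphiregulin, fell in all 3 Tfh-sort mice in Ifng 2+ against Ifng 0 cells (log2 fold change -0.61, edgeR adjusted p = 0.00889) and was higher in 3 of 3 reporter mice (0.40, edgeR adjusted p = 0.237). The difference between the sorts was not tested.

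Cells outside the cell rule also held Ifng. Of 119 Tfh-sort cells with a Cd8a or Cd8b1 UMI, 25 (21.0%) held 2 or more Ifng UMIs, 22.7%, 13% and 31.0% in mice 1 to 3, above the 0 of 340 B cells. Of 63 cells with a Foxp3 UMI, 3 (4.76%) did, with 3.03%, 0% and 22.2% by mouse.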

How the results depend on the processing

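For Ifng 2+ against Ifng 0 cells of the Tfh sort (132 genes), 53 genes passed with DESeq2, 58 after thinning, 44 with 1 or more Ifng UMI, 64 without cycling cells, 54 without Nkg7- or Ccl5-carrying cells and 42 to 99 with 1 mouse left out. With no low-count filter 60 rose and 67 fell, against 80 and 52. For 1 against 0 Ifng UMIs (22), 60 passed with no filter, 7 with DESeq2, 1 at matched depth, 0 without cycling cells and 1 to 60 with 1 mouse left out. For the reporter sort (250), 73 passed with DESeq2, 156 at matched depth and 64 to 191 with 1 mouse left out; RLE size factors gave 169 higher and 69 lower against 156 and 94, and no filter gave 129 and 120. For 2 or more against 1 Ifng UMI (101), DESeq2 gave 64 and leaving out 1 mouse 34 to 118. For Nkg7- or Ccl5-carrying against other Ifng 2+ cells (4), RLE and DESeq2 gave 2, no filter 20 and leaving out 1 mouse 2 to 25. The share of Ifng 2+ cells stayed within 1 SD (4.45% ± 1.26, n = 3; 4.00% to 5.17%).

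Without the replicate block, 115 genes passed for Ifng 2+ against 0 in the Tfh sort, 171 in the reporter sort, 4 between carrying and other cells, 7 for 1 against 0 and 68 for 2 or more against 1. The pairing comes from the mouse, which gave cells to each group.

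Directions changed in few named genes. Bcl6 was -0.0635 without replicate 1 (up to 0.58 without replicate 3) and -0.0038 without Nkg7- or Ccl5-carrying cells, and Ccl4 -0.53 without them. Gata3 was -0.0652 with no filter, -0.22 without replicate 3 (up to 0.15 without replicate 2), -0.38 at 5 or more Ifng UMIs, -0.0334 with Cd4-carrying cells only, -0.0004 without cells with B cell markers, -0.0299 without cycling cells, -0.10 without Nkg7- or Ccl5-carrying cells, -0.11 without Il2ra-carrying cells and -0.0019 without macrophage-marker cells. Akr1c18 (0.64), Ccnb2 (0.0672) and Cdc20 (0.12) were higher at 1 or more Ifng UMI. Lyz2 was -0.33 without replicate 3 (up to 2.05 without replicate 2), -1.78 at 3 or more and -1.27 at 5 or more Ifng UMIs. Hmgb2 in cells with 1 Ifng UMI was -0.0107 without cycling cells. The cause of these changes was not tested. Sums of 33 to 50 cells a mouse limit what low genes can show.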

Other observations

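Genes named here were picked after their values were seen and, apart from Spp1, passed in both sorts in the same direction. B2m, the light chain shared by class I molecules, stood at 4442, 4693 and 4578 CPM against 3472, 3523 and 3314 CPM in the Tfh sort (0.41 ± 0.07; edgeR adjusted p = 1.73e-05) and rose by 0.44 in the reporter sort. H2-Q7, a class I gene with near-identical neighbours that can share its reads, stood at 452, 479 and 480.1 CPM against 273, 292 and 251 CPM (0.79 ± 0.14) and rose by 0.84 in the reporter sort. In the Tfh sort all 3 Ifng 2+ mice lay above all Ifng 0 mice in both genes. Class I genes did not all move one way: H2-Q6 rose in the Tfh and reporter sorts (1.2 and 0.95), and H2-Q2 fell in both (-1.33 and -3.53).

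AW112010, a transcript induced in activated immune cells, stood at 932, 1179.9 and 1697 CPM against 432, 400.5 and 380.2 CPM in the Tfh sort (1.61 ± 0.11), and rose by 1.35 in the reporter sort. Anxa6, a calcium-dependent membrane-binding protein, rose by 1.78 ± 0.24 and 0.95 in the Tfh and reporter sorts. Rgs10, a regulator of G-protein signalling, fell from 745, 837 and 794 CPM to 556, 550.0 and 414 CPM in the Tfh sort (-0.63 ± 0.12) and by 0.64 on the log2 scale in the reporter sort. In the reporter sort Spp1 (osteopontin) stood at 65.3, 225 and 276 CPM against 6.79, 4.16 and 37.4 CPM (3.74 ± 0.28). In the Tfh sort it was not tested and stood at 0, 310.5 and 0 CPM in Ifng 2+ cells.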
